A study of Rattus norvegicus with 25 samples.

Results

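The comparison set the basolateral amygdala (BLA) against the dentate gyrus (DG) of control rats, to describe which genes set the 2 regions apart before any stress effect is considered. The 11 libraries were 6 BLA controls (animals 14, 17, 27, 28, 32 and 35) and 5 DG controls (animals 2, 14, 17, 28 and 32), of 25 libraries in the series, and animals 14, 17, 28 and 32 gave both regions. They were chosen by their labels, and 2 control libraries treated as outliers (BLA of animal 2 and DG of animal 35) were left out. Library names mark animals 14, 17 and 32 as high controls and animals 2, 27, 28 and 35 as low controls. The paper took controls from across the range of anxiety-like behavior scores, and the region fit did not include this label. All animals were adult male wild-type Sprague-Dawley rats that had no stress exposure but went through the same behavioral testing. Tissue was punched from the left dorsal DG and left BLA on day 9, so that each library is bulk poly-A RNA of all cells in the punches of 1 animal. In such RNA fewer cells of a type and less RNA per cell cannot be told apart. The treatment field of BLA animal 35 reads stress while its library name reads control. It was taken as control, and some results that rest on it are given with and without it. The 12 stress-exposed libraries, 6 of each region, came from rats that had been immobilized with predator scent, and served as a second set for the same region difference. They are labeled stress-low or stress-high by anxiety-like behavior score, and their fit included that label.

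The DG is the entry station of the hippocampus. Its principal cells, the granule cells, are small densely packed glutamatergic neurons that send mossy fibers to CA3, and new granule cells are added in adult rats. The BLA is a cortex-like nucleus in which pyramidal-type glutamatergic neurons are mixed with GABA interneurons, and it assigns emotional value to sensory input. It borders the striatum, the central amygdala and the intercalated cell masses, which hold mainly GABA neurons of striatal type.

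The libraries held 12709493 to 17165791 expected counts in the BLA and 13487835 to 19135223 in the DG. The 2 regions were also 2 library sets: effective length was 50 bases under gene length in the BLA and 261 to 272 in the DG, and an expected count that was not whole, which RSEM gives where reads are shared between genes, occurred in a BLA library for 61.8% of tested genes and in a DG library for 9.02%. Region and library set cannot be told apart. Genes of length 1000 or more were therefore tested with an offset for effective length, and a gene was called only with an adjusted p under 0.05 (edgeR, Benjamini-Hochberg) and at least a 4-fold difference. Values below are TPM, an abundance per transcript corrected for length and library total, and log2 fold changes are fitted values of BLA over DG. TPM values of the BLA sit lower than the fit by a common shift: the median of all genes was -0.13 on log2(TPM + 1) and 0.02 in the fit.

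Control libraries of 1 region resembled each other more than libraries of 1 animal did. Over the 12484 genes tested, Spearman correlations between libraries, which share length and composition biases within a set, were 0.987 to 0.994 among the 15 pairs of BLA libraries and 0.992 to 0.995 among the 10 DG pairs. Between the regions they were 0.917 to 0.932 over 30 pairs, and the 4 pairs from the same animal, at 0.922 to 0.932, lay within that range. With no limit on fold, 34.5% of genes were higher in the BLA and 33.7% higher in the DG. At 4-fold, 498 genes (3.99%) were called higher in the BLA and 223 (1.79%) higher in the DG. Counts of calls in the gene lists below are to be read beside these shares. The split depended on the scale, and limma on log2(TPM + 1) gave 181 and 171. TPM values did not overlap between the regions for 477 of the 498 and 221 of the 223, against 49.9% of all genes tested. Genes with a mean of at least 10 TPM in the higher region were more evenly split, with 168 called higher in the BLA and 141 in the DG. A mean under 1 TPM in the higher region held for 57 of the 498 and 8 of the 223, against 556 of all 12484. No gene name was given for 105 of the 498 and 15 of the 223, against 381 of all 12484. At 0 in every DG library were 30 of the genes higher in the BLA, while none of the genes higher in the DG was at 0 in every BLA library. Ranks within each library, which need no scaling between sets, did not overlap for 450 of the 498 and 221 of the 223, against 48.4% of all genes tested. The called genes were chosen on these same libraries, so lack of overlap in TPM and ranks was largely fixed by that choice. The ranks are of TPM and keep its length correction.

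**Figure D1:**
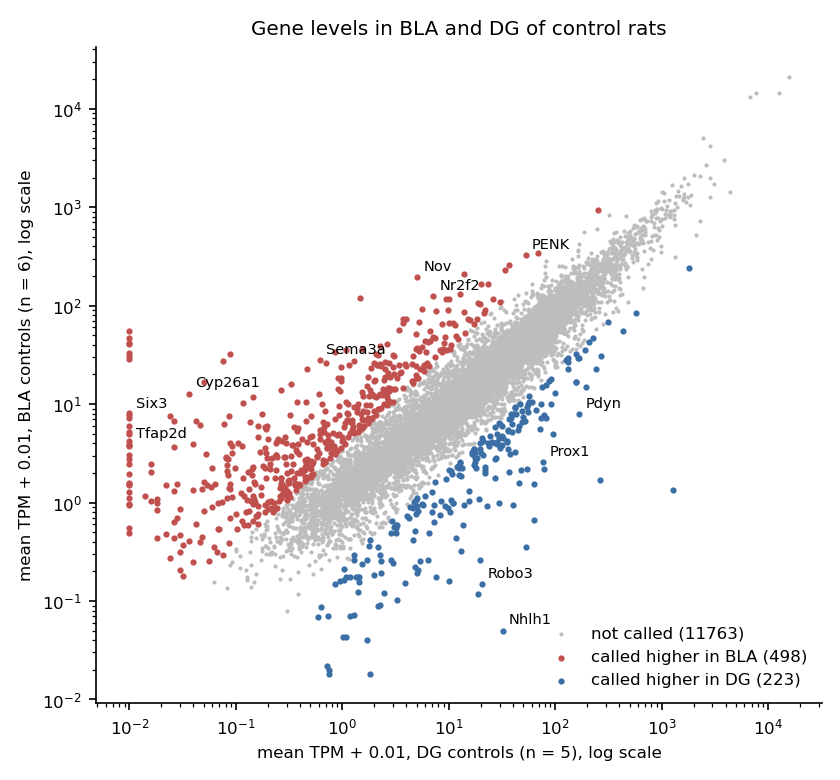
Mean TPM plus 0.01 of each tested gene in the 5 DG controls (horizontal) and the 6 BLA controls (vertical), both on log scales, with called genes in color. The 498 genes called higher in the BLA (red) reach down to genes at 0 in the DG at the left edge, and the 223 called higher in the DG (blue) lie below the diagonal.

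The DG was set apart by granule cell genes. Prox1, the homeobox factor that specifies and maintains granule cells, was at 63.0, 68.2, 73.3, 84.6 and 95.5 TPM in the 5 DG libraries. In the BLA its lowest, median and highest values were 2.27, 2.61 and 2.93 TPM. The groups lay far apart, with a log2 fold change of -4.73 (SE 0.10, adjusted p = 2.3e-14), and the exact two-sided permutation test on log2(TPM + 1) gave p = 0.00433, the smallest that 6 against 5 libraries allow. Prox1 moved from between the 34.4 and 35.4 percentile of genes in BLA libraries to between the 86.3 and 91.7 percentile in DG libraries.

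Of 15 names in the granule cell list, 14 had an identifier, 10 were tested, and 5 were called higher in the DG and none higher in the BLA, with a median log2 fold change of -2.24 against 0.02 over all genes. Plk5, a polo-like kinase of postmitotic neurons, was at 48.5 to 76.7 TPM in the DG and 1.06 to 2.18 in the BLA. Pdyn, the precursor of the dynorphin peptides carried by mossy fibers, was at 119 to 216 TPM in the DG. In the BLA it was at 4.85 to 7.76 TPM in 5 libraries and 16.03 in animal 35. The desmosome protein gene Dsp had a log2 fold change of -4.51 (SE 0.30) and the cation channel gene Trpc6 one of -2.75 (SE 0.15). Zbtb20, Glis3 and Stxbp6 were higher in the DG by less than 4-fold, at -1.58, -1.73 and -0.96. Calb1, which encodes calbindin, and Rasgrp1, a Ras activator, were higher in the BLA, at 0.55 (adjusted p = 5.3e-04) and 0.83 (5.6e-07). Mean levels were 139 ± 20.2 TPM (SD, n = 6) in the BLA and 106 ± 18.8 (n = 5) in the DG for Calb1, and 344 ± 24.8 and 217 ± 28.1 for Rasgrp1. The remaining 4 names gave no call: C1ql2 and C1ql3 were under the length limit, Tdo2 and Lct had mean values under 0.1 TPM in both regions.

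C1ql2, a C1q-like protein of mossy fiber synapses, had values far apart but is 953 bases long, so its fold depends on the length correction. It was at 351, 284, 315, 357 and 503.99 TPM in the DG and 1.85 to 4.28 in the BLA, and the fit over genes of any length gave -6.79. C1ql3 in that fit was at 0.76, with 439 to 567.6 TPM in the BLA and 276 to 396 in the DG. Npy, the neuropeptide Y precursor (536 bases), was at 271 to 352 TPM in the DG and 5.27 to 27.6 in the BLA. Nmb, the neuromedin B precursor (660 bases), was at 57.7 to 87.5 TPM in the DG and 0.14 to 1.04 in the BLA.

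The 12 genes with the largest fitted differences toward the DG (mean of at least 10 TPM, no overlap, 1 identifier per name) were led by a neurogenic basic helix-loop-helix factor, Nhlh1. It was at 27.8, 23.1, 28.0, 37.8 and 43.5 TPM in the DG. In the BLA it lay between 0 and 0.11 TPM, 6 counts in all 6 libraries together, and the log2 fold change was -9.30 (SE 0.30). Robo3, a receptor of midline axon guidance, was at 18.4 to 23.1 TPM in the DG and 0.02 to 0.23 in the BLA. Ntf3, the precursor of the neurotrophin NT-3, was at 43.6, 30.1, 45.0, 42.2 and 41.4 TPM in the DG and 0.43 to 1.34 in the BLA. Epha8, an ephrin receptor, was at 56.9 to 89.5 TPM against 1.58 to 2.79. Each of these 4 genes was over 20 times higher in every DG library than in any BLA library. Ppl (periplakin) had a log2 fold change of -6.11 (SE 0.21) and Ghsr, the ghrelin receptor, one of -4.60 (SE 0.21). Plk5, Prox1 and Neurod1 completed the group of genes with mostly whole counts. Abcb1b, Rufy2 and RGD1565368 (-5.12, -4.79 and -4.70) also ranked here, but their counts were not whole in most libraries, and their values are uncertain.

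Neurod1 drives neuronal differentiation of new granule cells. It was at 51.9, 47.8, 53.4, 56.3 and 63.8 TPM in the DG and at 0.95, 1.96 and 4.34 (lowest, median, highest) in the BLA, a log2 fold change of -4.47 (SE 0.19). It was the single called gene among 8 tested genes of newborn neurons and progenitors, whose median was -0.17. Mki67, a marker of dividing cells, was at 2.74 to 4.92 TPM in the DG and 1.16 to 1.81 in the BLA (-1.13, adjusted p = 2.0e-06). Dcx, which marks young migrating neurons, went the other way by a small amount, at 7.08 ± 1.35 TPM in the DG and 10.1 ± 1.74 in the BLA (0.68, adjusted p = 3.3e-04).

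Nhlh1 and Neurod1 belong to the family of factors that bind E-boxes (CANNTG), so their own promoters are shown, 250 bases before to 50 after the start in RefSeq on build GRCr8, with matches to CANNTG and to the TATA box letters TATAAA, on either strand, in capitals. Nhlh1 lies at chr13:87054885-87055184 (minus strand) with 2 E-box matches and 1 TATAAA, and Neurod1 at chr3:84770405-84770704 (minus strand) with 1 E-box match.
Nhlh1: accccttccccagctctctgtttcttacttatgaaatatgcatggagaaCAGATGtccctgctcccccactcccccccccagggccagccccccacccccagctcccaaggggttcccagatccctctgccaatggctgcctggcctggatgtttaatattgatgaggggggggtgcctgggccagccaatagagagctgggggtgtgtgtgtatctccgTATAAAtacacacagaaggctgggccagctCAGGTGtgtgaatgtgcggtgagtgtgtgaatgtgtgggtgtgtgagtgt
Neurod1: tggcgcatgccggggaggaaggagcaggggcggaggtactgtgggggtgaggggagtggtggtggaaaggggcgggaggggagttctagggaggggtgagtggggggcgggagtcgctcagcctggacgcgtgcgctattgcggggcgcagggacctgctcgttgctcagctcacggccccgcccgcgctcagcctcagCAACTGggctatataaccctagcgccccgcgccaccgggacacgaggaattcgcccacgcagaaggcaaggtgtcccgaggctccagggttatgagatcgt
E-box letters were in 66.7% of the 153 promoters matched to genes called higher in the DG, in 66.8% of those for the BLA and in 62.4% of all 8991 matched to tested genes. TATAAA was in 15.0%, 10.2% and 6.35% in the same order. A match describes the letters of the window and is not a shown binding site.

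Markers of other hippocampal cells did not follow 1 direction. Of the CA pyramidal neuron list, 6 genes were tested and 2 called. Wfs1, the wolframin gene, was higher in the BLA at 130 to 231 TPM against 16.7 to 24.4 (3.19, SE 0.15). Grik4, a kainate receptor subunit known from CA3 and granule cells, was higher in the DG at 63.5 to 85.1 TPM against 5.26 to 9.54 (-3.20, SE 0.12). The hilar mossy cell list has 4 names, of which 3 were long enough to be tested and were called higher in the BLA: Calb2 (calretinin, also found in interneurons), Calcrl (a receptor component for calcitonin gene-related peptide) and DRD2 (the dopamine D2 receptor, abundant in striatal neurons), at 3.69, 2.18 and 2.46. Calb2 alone of the 3 was called with limma on log2(TPM + 1) and with glmTreat against 4-fold. The fourth name is Nmb, given above, which the fit over genes of any length called higher in the DG (-6.77). DRD2 was at 2.27 to 2.94 TPM in 5 BLA libraries, 7.70 in animal 35 and 0.54 to 0.85 in the DG. Without animal 35 its log2 fold change was 2.07 (SE 0.18).

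**Figure D2:**
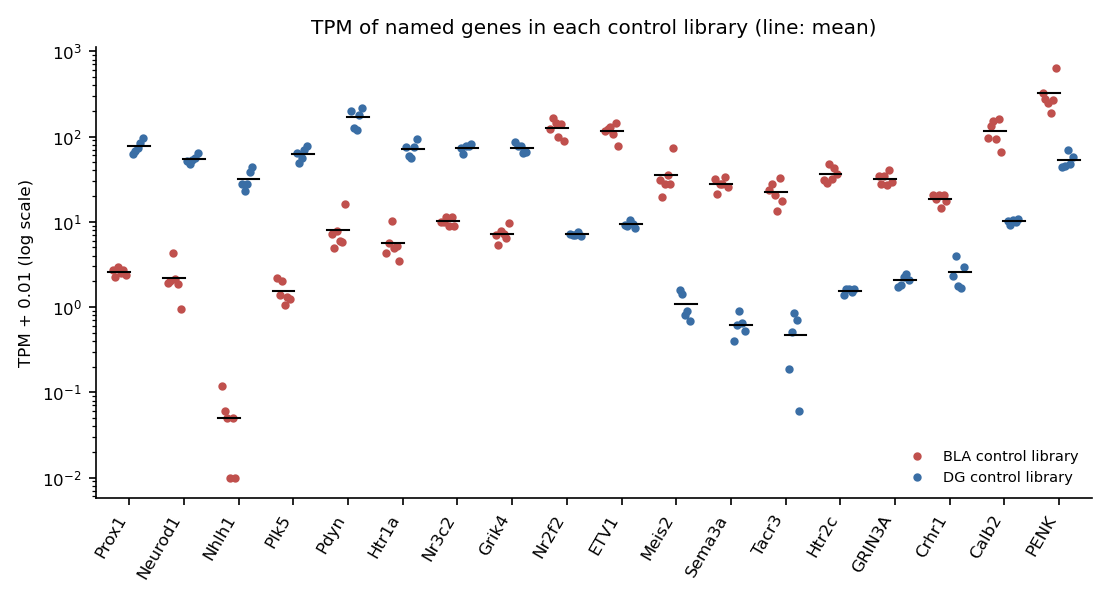
TPM plus 0.01 (log scale) of 18 named genes in each BLA control library (red, n = 6) and DG control library (blue, n = 5), with the mean as a line. The points of the regions do not overlap for any of these genes, and Pdyn, Meis2 and PENK each have 1 BLA point, animal 35, above the others.

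In the list of pallial and amygdalar principal neuron markers, some genes were higher in the BLA and others were even or higher in the DG. All 15 names of that list were tested, 6 were called higher in the BLA and none higher in the DG, with a median log2 fold change of 1.21. Nr2f2, the nuclear receptor COUP-TFII, was at 88.0, 130.7 and 163 TPM (lowest, median, highest) in the BLA and at 7.17, 7.00, 6.99, 7.57 and 6.76 in the DG. This was a log2 fold change of 4.31 (SE 0.15, adjusted p = 2.0e-12) with a narrow spread in the DG. ETV1, an ETS factor, was at 76.9 to 143 TPM against 8.52 to 10.6 (3.80, SE 0.12). Tfap2d, an AP-2 factor, was at 2.73 to 4.90 TPM in the BLA with no count in any DG library, at least 12.9-fold higher against a floor of 3 counts per library. Slc17a6, the vesicular glutamate transporter VGLUT2, was at 7.37 to 19.6 TPM against 2.10 to 3.26 (2.61, SE 0.22). Cyp26b1, which breaks down retinoic acid, was at 68.3 to 100.5 TPM against 16.4 to 25.8 (2.15, SE 0.13). With limma on log2(TPM + 1) 3 of the list were called. Counts of Nr2f2, ETV1 and Cyp26b1 were not whole in all 6 BLA libraries and whole in every DG library, so part of their BLA reads was shared with other genes and their fold is uncertain to that extent. Among genes given elsewhere, the same holds for PENK, Htr2c, Pcdh10 and Neurod6 (5 BLA libraries), among others. It also holds for Rasgrp1, Thy1, Mki67, Gfap, Slc1a2, Gria2 and Homer1 (6 BLA libraries), and for Lmo3, Mef2c and Calb1 (4 BLA libraries).

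The 9 uncalled names of the list were below 4-fold. Mef2c, Fezf2, Lmo3, Tbr1 and Satb1 were higher in the BLA at 1.50, 1.21, 0.76, 0.55 and 0.46. Rspo2 and Thy1 were higher in the DG at -0.44 (adjusted p = 0.0143) and -0.26 (0.00327). Neurod6 and Nr4a2 did not pass at -0.20 (SE 0.14, adjusted p = 0.197) and 0.03 (SE 0.12, 0.839). Summed over the list, TPM overlapped between the regions (1580 to 1983 in the BLA, 1589 to 1888 in the DG), and Thy1 alone held 792 to 1388 TPM.

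The 12 genes with the largest fitted differences toward the BLA, chosen in the same way, included secreted proteins, an enzyme and receptors. Cyp26a1, another retinoic acid hydroxylase, was at 11.4, 12.1 and 15.1 TPM (lowest, median, highest) in the BLA, with 2 counts in all DG libraries together, so that its rate was 506 times higher with a 95% counting interval of 140 to 4184. Dlk1, a Notch ligand-like membrane protein, was at 10.6 to 23.4 TPM with 2 counts in the DG (422 times, 117 to 3492). Tmem54, a membrane protein, was at 24.6 to 41.5 TPM with 3 counts in the DG (424 times, 145 to 2059). Nov, a secreted matrix protein of the CCN family, was at 107, 204 and 240 TPM against 6.28, 4.40, 5.72, 4.57 and 4.14 in the DG. Sema3a, a secreted axon repellent, was at 21.4, 27.7 and 33.5 TPM against 0.39, 0.61, 0.89, 0.64 and 0.51 (5.67, SE 0.16). The values of both genes were more than 15 times higher in every BLA library than in any DG library.

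Tacr3, the neurokinin B receptor, was at 13.4, 22.1 and 32.6 TPM in the BLA and at 0.18, 0.50, 0.85, 0.69 and 0.05 in the DG (5.76, SE 0.33). Oprk1, the kappa opioid receptor to which the Pdyn peptides bind, was at 9.19, 9.88 and 13.7 TPM against 0.33, 0.51, 0.26, 0.33 and 0.39 (4.95, SE 0.15). The Pdyn precursor and Oprk1 were thus called in opposite directions. The counts of Nov and Lphn2 were not whole in 4 of the 6 BLA libraries. Lphn2, an adhesion receptor, Ankrd63 and the homeobox gene Meis2 were at 5.38, 5.86 and 5.22. Fam166a and RGD1566344 (6.69 and 6.58) also ranked here, with counts that were not whole in all 6 BLA libraries, and are uncertain.

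The promoters of Cyp26a1 and Tfap2d are shown as those of a gene nearly at 0 and a gene at 0 in the DG, in the same form. Cyp26a1 lies at chr1:244883572-244883871 (plus strand) with 1 E-box match and 1 TATAAA, and Tfap2d at chr9:29176846-29177145 (plus strand) with neither.
Cyp26a1: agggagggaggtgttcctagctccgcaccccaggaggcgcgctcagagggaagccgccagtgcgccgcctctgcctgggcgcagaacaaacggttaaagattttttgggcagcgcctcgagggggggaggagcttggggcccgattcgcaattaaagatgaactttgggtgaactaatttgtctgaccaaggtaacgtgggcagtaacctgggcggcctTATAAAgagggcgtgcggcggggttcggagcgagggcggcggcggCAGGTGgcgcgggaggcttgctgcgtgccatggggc
Tfap2d: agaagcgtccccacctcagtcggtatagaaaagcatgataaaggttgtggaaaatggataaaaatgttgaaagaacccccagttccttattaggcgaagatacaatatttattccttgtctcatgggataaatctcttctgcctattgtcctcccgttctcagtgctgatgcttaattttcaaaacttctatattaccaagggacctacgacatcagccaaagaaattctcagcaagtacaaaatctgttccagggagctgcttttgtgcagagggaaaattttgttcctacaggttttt

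Markers of the striatum and central amygdala were also higher in the BLA punches, and 1 library stood apart in them. Of 12 tested, 6 were called higher in the BLA and none in the DG (median 1.82), and the summed TPM of the list was 364 to 523 in 5 BLA libraries, 993 in animal 35 and 187 to 250 in the DG. PENK, the enkephalin precursor, was at 190 to 320 TPM in 5 BLA libraries and 645 in animal 35, against 43.4, 44.9, 70.2, 47.8 and 57.3 in the DG (2.79, SE 0.27). Six3, a factor of striatal neuron precursors, was at 3.31 to 8.12 TPM and 18.2 in animal 35 with no count in the DG (at least 19.5-fold). Adora2a, the adenosine receptor of indirect-pathway neurons, was at 1.65 to 3.81 TPM and 21.1 in animal 35, against 1.06 to 1.89 in the DG, so that the regions overlapped. Rxrg, a retinoid receptor, and Prkcd, a kinase marking a class of central amygdala neurons, had no such spread, at 33.7 to 45.1 and 9.97 to 13.9 TPM in all 6 BLA libraries, with log2 fold changes of 4.09 and 3.12.

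Without animal 35, 4 of the 12 were called, and Adora2a fell below 4-fold at 0.90 (SE 0.25, adjusted p = 0.00601), while PENK was at 2.47. With the animal as a block over the 4 paired animals, which do not include animal 35, Adora2a was at 1.01 and not called. In the intercalated cell list Foxp2 and Meis2 were called higher in the BLA with and without animal 35 (6.85 and 5.22 with, 6.40 and 4.88 without). Their TPM was 1.85 to 6.95 and 19.8 to 35.0 in the other 5 libraries and 15.0 and 73.1 in animal 35. OPRM1, the mu opioid receptor, was at 1.70 (SE 0.15). Tshz1 was at -0.01 (SE 0.15, adjusted p = 0.975) in the fit with animal 35, a value that rested on that library. Its TPM was 53.4 in animal 35, 22.6 to 33.7 in the other 5 BLA libraries and 34.5 to 41.5 in the DG. Without animal 35 Tshz1 was at -0.19 (SE 0.08, adjusted p = 0.0576). With the animal as a block it was higher in the DG at -0.25 (adjusted p = 0.0109). Among uncalled striatal names, Drd1 was at 1.45 and Ppp1r1b (DARPP-32) at -0.56 (adjusted p = 0.0302), a gene that granule cells also express. Without animal 35, Drd1 was at 1.28 and Ppp1r1b at -0.845 (adjusted p = 7.6e-06). The part of neighboring tissue in the differences of these genes was not tested.

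**Figure D3:**
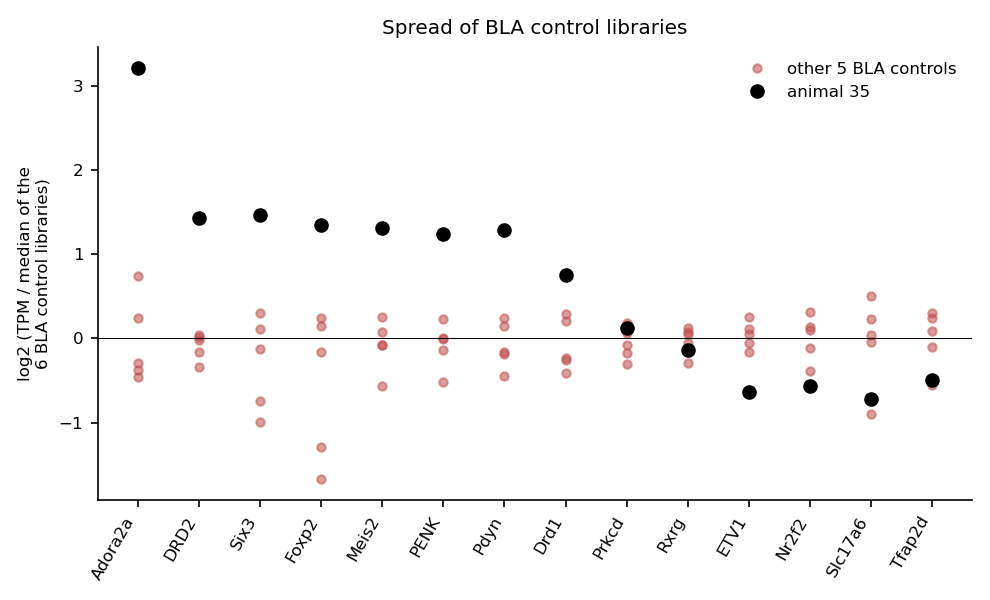
Log2 ratio of TPM to the median of the 6 BLA control libraries for 14 genes, with animal 35 in black and the other 5 libraries in red. Animal 35 is the highest library for the striatal-type genes at the left and for Drd1, and among the lowest for ETV1, Nr2f2, Slc17a6 and Tfap2d at the right.

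Markers of GABA neurons as a whole were close to even. Of 13 tested, 1 was called, Vip, a peptide of interneurons, at 21.5 to 27.5 TPM in the BLA against 2.96 to 5.05 in the DG (2.76, SE 0.13), and the median was 0.16. Gad2, which makes GABA, was at 0.16 (SE 0.10, adjusted p = 0.173). Kit was higher in the DG at -1.45.

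Glial and vascular markers were mostly higher in the BLA by less than 4-fold, apart from Gfap. None of 13 oligodendrocyte, 6 progenitor, 10 astrocyte, 10 microglia and 9 endothelial and mural genes was called. At an adjusted p under 0.05, 12 of the 13 oligodendrocyte genes were higher in the BLA (median 0.97, summed TPM 2660 to 3613 against 1715 to 2328), as were all 10 microglia genes (median 0.76, 301 to 409 against 214 to 257) and 7 of the 9 vascular genes (median 0.64). Over all genes 34.5% were higher in the BLA at this limit. Of the 10 astrocyte genes 6 were higher in the BLA and 1 in the DG, with summed TPM of 2012 to 2283 against 2085 to 2945. Gfap, the astrocyte filament, went the other way at 110 ± 7.30 TPM against 479 ± 109 (-1.96, adjusted p = 3.1e-10), just under 4-fold in the fit. It was called higher in the DG with limma on log2(TPM + 1) (-2.09) and without DG animal 28 (-2.04), while Slc1a2, the astrocyte glutamate transporter, did not pass at 0.20 (adjusted p = 0.0559). Choroid plexus genes summed to 0.50 to 1.59 TPM in all 11 libraries with Ttr at 0. Of 7 meningeal genes, Lum was called higher in the BLA (2.30) at 1.45 to 6.57 TPM against 0.32 to 1.54, and it was not called without BLA animal 28 (1.96).

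**Figure D4:**
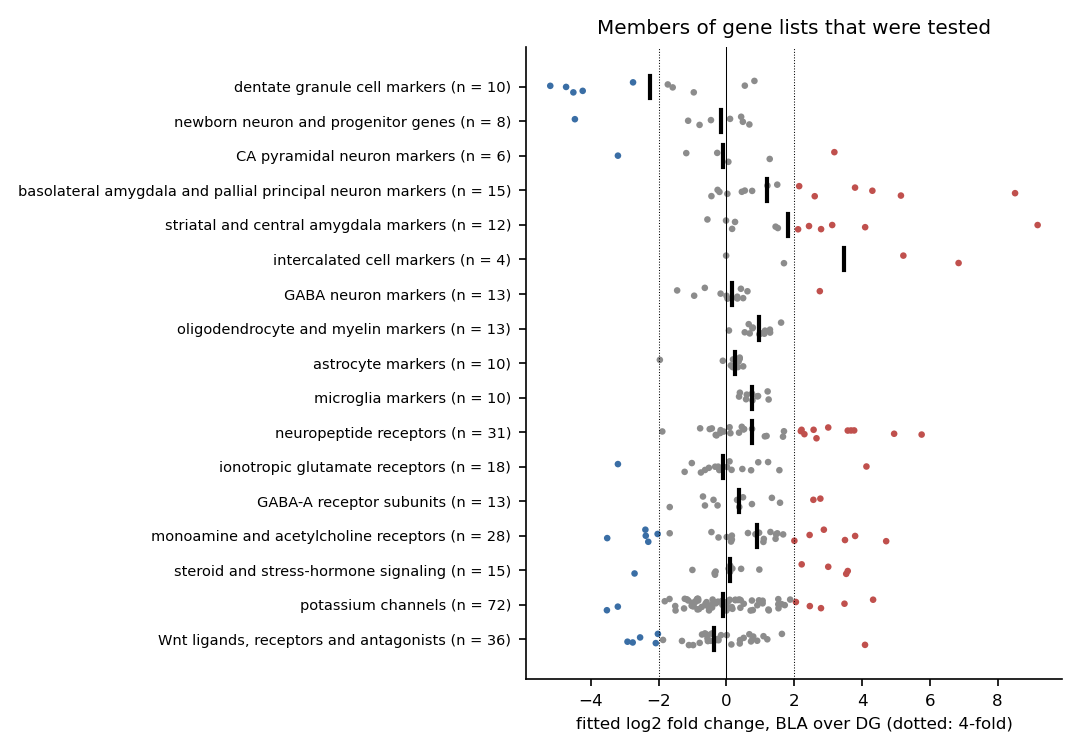
Fitted log2 fold change of BLA over DG for each tested member of 17 gene lists, red where called higher in the BLA, blue where called higher in the DG and grey otherwise, with the median of each list as a bar and 4-fold as dotted lines. The median of granule cell markers lies to the left at -2.24, those of amygdalar, striatal and intercalated markers lie to the right, and glial markers stay within the dotted lines.

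Patterning transcription factors split between the regions. Of 42 tested, 10 were called higher in the BLA and 5 higher in the DG, with a median of 0.04. On the DG side, beside Prox1 and Neurod1, were Lhx9 (-3.74), Nfix (-2.34) and Bcl11a (-2.28), a LIM-homeobox, a nuclear factor I and a zinc finger gene. Nfix was at 134 to 193 TPM in the DG and 23.3 to 36.3 in the BLA. On the BLA side the homeobox cofactors Meis1 (5.86) and Pbx3 (3.27) joined Meis2. Emx1 and Emx2, factors of dorsal telencephalon, were higher in the DG by less than 4-fold (-1.36 and -1.85).

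Of 31 genes in the list of neuropeptide receptors that were tested, 11 were called higher in the BLA and none in the DG (median 0.76). The list does not hold Ghsr, the ghrelin receptor, which was called higher in the DG at 10.3 to 13.1 TPM against 0.15 to 0.59. The count of 11 became 5 with limma on log2(TPM + 1), where Oxtr, Galr1, Crhr2, Crhbp, Trhr and Ntsr1 were not called, and 7 with glmTreat against 4-fold. Beside Tacr3 and Oprk1 these included Oxtr, the oxytocin receptor, at 0.86 to 1.48 TPM against 0 to 0.24 (3.77, SE 0.53), Galr1, a galanin receptor (3.68), and Sstr1, a somatostatin receptor, at 20.6 to 29.0 TPM against 3.59 to 5.25 (2.66). Ntsr1, a neurotensin receptor, and Trhr, the thyrotropin-releasing hormone receptor, were called (2.30 and 2.22) but not in the fit over the 4 paired animals with the animal as a block (1.89 and 1.95), and without animal 35 Ntsr1 was at 1.99 and not called. Adcyap1r1, the PACAP receptor, was higher in the DG by less than 4-fold at -0.31. Of 13 peptide precursors tested, PENK, Vip, Nts and Nxph4 were called higher in the BLA and Pdyn higher in the DG. With genes of any length 22 were tested, 5 called higher in the BLA and 3 higher in the DG, and the short precursors Npy (-4.57) and Nmb (-6.77) were on the DG side. Nts, the neurotensin precursor, was at 4.18 to 10.3 TPM in the BLA with 1 count in the DG (352 times, 95% counting interval 63.0 to 13940).

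Genes of the stress axis were among the called receptors. Crhr1, the main receptor of corticotropin-releasing hormone, was at 14.4, 19.3 and 20.9 TPM in the BLA and at 2.32, 3.98, 1.75, 1.67 and 2.94 in the DG, with no overlap (3.01, SE 0.19, adjusted p = 1.4e-09). Crhbp, which binds the hormone, was at 30.1 to 41.1 TPM against 5.41 to 12.3 (2.20), and Crhr2 at 0.74 to 2.55 against 0 to 0.27 (3.58, SE 0.55). Nr3c2, the mineralocorticoid receptor, showed the opposite, at 72.8, 62.5, 76.6, 76.8 and 80.9 TPM in the DG and 8.94, 9.89 and 11.5 in the BLA (-2.71, SE 0.06, adjusted p = 4.9e-14). Of 15 steroid and stress-hormone genes tested, 4 were called higher in the BLA, which were Crhr1, Crhr2, Esr1 (estrogen receptor alpha, 2.22) and Cyp19a1 (aromatase, 3.54), and Nr3c2 was called higher in the DG. With limma on log2(TPM + 1) Crhr1 and Nr3c2 alone were called, and with glmTreat against 4-fold 2 and 1 were. Fkbp5, a chaperone induced by glucocorticoids, was higher in the DG by less than 4-fold, at 43.1 ± 5.42 TPM against 19.2 ± 1.53. The glucocorticoid receptor Nr3c1 has 2 identifiers and is uncertain. Hsd11b1, which regenerates corticosterone, did not pass at 0.11 (SE 0.10, adjusted p = 0.315).

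Receptors for serotonin, noradrenaline, dopamine and acetylcholine were called in both directions, 6 of 28 higher in the BLA and 5 higher in the DG, or 4 and 2 with limma on log2(TPM + 1), 4 and 1 with glmTreat against 4-fold, and 5 and 3 in the stress-exposed libraries. Htr1a was at 74.7, 58.8, 56.2, 74.9 and 94.5 TPM in the DG and 3.47, 5.06 and 10.2 in the BLA (-3.51, SE 0.20). Htr2c was at 28.8, 33.8 and 47.6 TPM in the BLA, against 1.36, 1.60, 1.60, 1.50 and 1.60 (4.71, SE 0.13). Htr1b was also higher in the BLA, at 18.1 to 27.8 TPM against 1.40 to 2.16 (3.80). Serotonin receptors of different subtypes were thus high in different regions. Adra1d and Htr4 were higher in the DG (-2.38 and -2.30) and Adra2a and Chrna4 higher in the BLA (2.88 and 3.50). The muscarinic M2 receptor name is held by an identifier written Chrm2 and another written CHRM2, which were called in opposite directions (2.01 and -2.39) and are uncertain.

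Of 18 ionotropic glutamate receptor genes, GRIN3A was called higher in the BLA, at 27.3 to 40.1 TPM against 1.70 to 2.45 (4.13, SE 0.11), and Grik4 higher in the DG. Beside 3.99% and 1.79% of all genes, 1 call in each direction does not set this list apart. The abundant subunits differed by less than 4-fold toward the DG, with Grin1 at -0.51, GRIA1 at -0.75 and Gria2 at -0.21. Of 7 metabotropic receptors Grm8 was called (3.60, higher in the BLA), and 1 call in so short a list does not set it apart. Of 13 GABA-A receptor subunits Gabra3 and Gabrg3 were called higher in the BLA (2.77 and 2.57), with Gabra3 at 77.6 to 101 TPM against 12.2 to 17.5. Leaving out any 1 DG library gave 3 calls, or 4 without animal 32, by adding Gabrq and Gabre, both under 2 TPM in every library and named after their values were seen. Gabrd, the subunit of extrasynaptic receptors on granule cells, was higher in the DG by less than 4-fold, at 58.5 to 85.3 TPM against 16.5 to 22.9 (-1.67, SE 0.09). No immediate early gene of 15 was called in the fit over all 11 libraries. Egr2, named after its values were seen, lay at the limit with 0.95 to 1.92 TPM in the BLA and 0.08 to 0.76 in the DG (1.98, SE 0.38). It was called with the animal as a block (2.42), and without BLA animal 17, 32 or 35 or DG animal 2 or 14 (2.01 to 2.30). Fos was at 4.74 ± 2.01 TPM in the BLA and 6.25 ± 2.48 in the DG (-0.21, SE 0.31, adjusted p = 0.555), Homer1 was higher in the BLA (1.48) and Egr3 higher in the DG (-0.85).

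Of 72 potassium channel genes 5 were called higher in the BLA and 2 higher in the DG, too few to set the list apart from the 3.99% and 1.79% of all genes. The 5 became 3 without BLA animal 14 and in the stress-exposed libraries, and 2 with limma on log2(TPM + 1). Kcnf1, a modifier subunit, was at 56.9 to 74.8 TPM in the BLA against 2.55 to 5.74 (4.33, SE 0.13), and Kcng2, another modifier subunit, was at 27.7 to 40.3 TPM in the DG against 2.10 to 5.13 (-3.20, SE 0.15). Axon guidance genes (semaphorins, ephrins, netrins, slits and receptors) were called in both directions, 5 of 63 higher in the BLA and 6 higher in the DG, or 2 and 6 with limma on log2(TPM + 1) and 2 and 3 with glmTreat against 4-fold. Sema3c was at 33.3 to 43.2 TPM in the DG against 1.98 to 3.50, the reverse of Sema3a. Epha4, Epha3 and Epha8 were higher in the DG, and Efnb2, an ephrin ligand, higher in the BLA (2.73). Among 30 cadherins and protocadherins, Pcdh10 (2.34), Cdh4 and Cdh22 were called higher in the BLA and Cdh12 (-2.29) higher in the DG, or 1 and 1 with limma on log2(TPM + 1). These counts are also too few to set the list apart. The Wnt list leaned to the DG, with 5 of 36 called there, 1 called in the BLA (Dkk2) and a median of -0.35. With limma on log2(TPM + 1) or glmTreat against 4-fold 3 were called in the DG. Wnt4 was at 60.2 to 74.9 TPM in the DG against 7.04 to 11.9 (-2.76, SE 0.10), and the Wnt antagonist Frzb and agonist Rspo3 were at -2.92 and -2.54.

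The called genes were also followed within single animals. These animals gave most of the libraries behind the calls, so agreement within them was largely fixed by that choice of genes. The share over all genes tested was not computed. In the 4 rats with both regions, 490 of the 498 genes higher in the BLA and all 223 higher in the DG had the same direction of TPM in every animal, and 258 and 159 were at least 4-fold apart in every animal. The log2 TPM ratio of Prox1 was -4.60, -4.95, -5.03 and -5.08, and that of Nr2f2 was 4.09, 4.52, 3.71 and 4.36. In the stress-exposed libraries, which share no library with the controls, 470 genes (3.8%) were called higher in the BLA and 207 (1.67%) higher in the DG. Of the 498 genes 415 were called there too (83.3% of the control calls and 88.3% of the stress calls), and of the 223 genes 188 (84.3% and 90.8%). All 460 and 214 that could be tested there had the same sign. The share of all genes with the same sign is not given here. The regions of the stress-exposed libraries also differ in library set. Region and library set therefore cannot be told apart in them either. Prox1 was at -4.81 and Nr2f2 at 4.12 in those libraries.

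**Figure D5:**
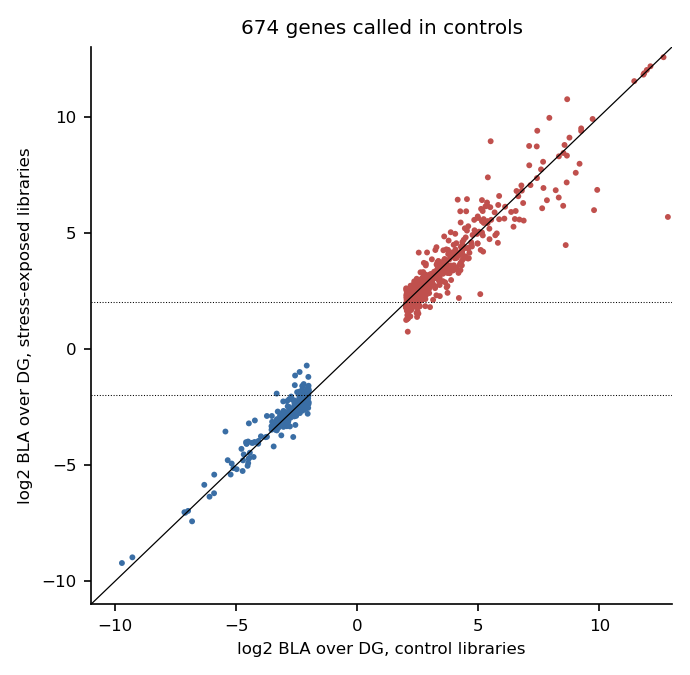
Fitted log2 fold change of BLA over DG in the 11 control libraries (horizontal) and in the 12 stress-exposed libraries (vertical) for the 460 and 214 called genes tested in both, with the line of equal values and 4-fold as dotted lines. Every point has the same sign on both axes, with Prox1 at -4.73 and -4.81. On both axes region and library set cannot be told apart.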

How the data were processed

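Bulk poly-A RNA libraries of BLA and DG punches were compared. For each region the authors deposited expected counts and TPM values from RSEM 1.3.1, with gene and effective length, after alignment to Rn5 by STAR 2.6.0a. Expected counts were rounded and tested in edgeR 4.0.16 (quasi-likelihood test, TMM, effective-length offset, Benjamini-Hochberg adjustment over all 12484 genes of length 1000 or more that passed the low-count filter). SE is the absolute log2 fold change over the square root of F and is approximate. DESeq2 1.42.0 and limma 3.58.1 were alternatives, and the script was tested on simulated data. Counting intervals are exact at 95% and cover counting error only. Each library is 1 animal.

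Named were the 12 largest called differences in each direction (mean of at least 10 TPM, no overlap, 1 identifier), all granule cell and amygdalar list members, and from other lists up to 5 called and 3 abundant uncalled members. Some genes that this rule names are not reported here. The comparison and lists were chosen with earlier results of these data known. Libraries assigned the same animal number were taken as from the same animal. Their deviations from the region means correlated at 0.13, 0.16, 0.22 and 0.19 for animals 14, 17, 28 and 32. Mismatched pairs were not computed, so these values do not test the pairing. Promoters came from RefSeq (GRCr8), matched by name. Coordinates of Rn5 were not used here. Setting genes at 0 to their bound left every list median the same.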

Additional observations from a re-analysis of the deposited data

Results flagged for a closer look

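In 24 of 236 groups checked (10.2%), the highest or lowest library lay further from its neighbor than Dixon's 95% limit allows, where chance flags about 1 in 20. BLA animal 35 gave 11 of them. It was the highest BLA library for Meis2 (73.1 TPM), Pdyn (16.0), DRD2 (7.70), Six3 (18.2), PENK (645), Adora2a (21.1), Ppp1r1b (123), Tshz1 (53.4), Pbx3 (25.7), Ntsr1 (3.10) and Stxbp6 (64.6). BLA animal 27 was highest for Neurod1 (4.34 TPM), Htr1a (10.2) and Wnt4 (11.9). BLA animal 32 was highest for Oprk1 (13.7 TPM) and stood apart for Homer1 (60.2), and BLA animal 17 was lowest for Sema3c (1.98). In the DG, animal 17 was highest for Slc17a6 (3.26 TPM), Mki67 (4.92) and Prkcd (2.42), animal 14 stood apart for Ntf3 (30.1) and Homer1 (22.4), and animal 32 for Chrna4 (3.98) and Epha3 (16.7).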

How the results depend on the processing

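Of 94 named genes called, 71 were called under every alternative that gave a value and 89 under every alternative other than limma and glmTreat, and no direction reversed. The counts of 498 and 223 became 920 and 338 without the low-count filter, 795 and 320 with genes of any length, 243 and 120 at 2000 bases or more, 1367 and 765 at 2-fold, 310 and 133 with glmTreat against 4-fold, and 181 and 171 with limma on log2(TPM + 1), with or without its TPM filter. Limma on log2(TPM + 0.1) gave 387 and 261, DESeq2 501 and 217, and all control libraries 509 and 203. Leaving out 1 library gave 460 to 547 and 215 to 226. With the animal as a block over the 4 paired animals, the counts were 479 and 235 (474 and 229 without the block), and Adora2a, Ntsr1 and Trhr were not called while Egr2 was. Genes low in the DG rest on few counts there, and genes near or under 1000 bases depend on the length correction, which differs between the library sets. In the fit over genes of any length, 4.94% of genes of 1000 to 2000 bases were called higher in the BLA. The share was 3.49% at 2000 to 4000 bases and 2.99% at 4000 or more. Shares called higher in the DG were 2.04%, 1.59% and 1.77%. The cause of this trend was not tested.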

Other observations

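Among abundant genes outside the rule for naming, chosen after their values were seen, signaling genes differed in both directions. Hpca, the calcium sensor hippocalcin, was at 1660 to 2064 TPM in the DG and 198 to 294 in the BLA (log2 fold change -2.73). Adcy1, a calcium-stimulated adenylyl cyclase, was at 346 to 499 TPM against 47.3 to 66.6 (-2.81), and Nptx1, a synaptic pentraxin, at 542 to 641 against 74.0 to 91.1 (-2.62). In the BLA, Hpcal1, a relative of hippocalcin, was at 196 to 328.0 TPM against 28.2 to 44.8 in the DG (2.98), Rgs4, which shortens G protein signals, at 162 to 232 against 10.4 to 18.1 (4.08), and Camk2d, a calmodulin-dependent kinase, at 83.0 to 116 against 4.97 to 6.50 (4.22). Counts of Hpca and Hpcal1 were not whole in all 6 BLA libraries. The 6 genes had the same direction in all 4 paired animals.

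The 2 control libraries that had been left out lay with their labeled region. BLA animal 2 was nearer the BLA mean than the DG mean for 686 of the 721 called genes, and DG animal 35 nearer the DG mean for 691. The called genes were chosen for a large region difference, so this was largely fixed by that choice. Values for the libraries used are not given here, and why these libraries were outliers was not tested.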
